A study of Mus musculus with 12 samples.

Results

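The immediate early and AP-1 genes described here were 10 rows of the deposited count tables, Fos, Fosb, Jun, Junb, Egr1, Atf3, Ier2, Ier3, Dusp1 and Nr4a1, out of 32288 rows in each library. The rule names them and uses no measured value, but the class was picked with earlier results of these data known. RNA was sequenced from subcutaneous tumors of P815, a mouse mastocytoma line, with 1 tumor in each DBA/2 mouse. P815-IFNG cells, a single-cell clone, carried the light-sensitive transactivator GAVPO under the EF-1α promoter and a light-switched module for murine Ifng and Cxcl10, together with a red fluorescent and a luciferase reporter. P815-M cells, also a single-cell clone, carried the fluorescent and luciferase reporter under the EF-1α promoter and no cytokine module, so the lines differed in more than the module and each stands for 1 clone. Mice of the light group received blue light on the tumor for 12 h per day over 6 days, mice of the dark group received none, and each of the 4 groups held 3 mice. Per the paper's methods, light-group mice were caged singly during illumination. The housing of the dark group was not stated, so light and any difference in housing cannot be told apart. The age of the mice was not in the sample labels, and the time between the last light and the death of the mice was not given in the sources used here.

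Immediate early genes are transcribed within minutes of a stimulus such as a growth factor, a cytokine or stress, without the need for newly made protein, and most of their mRNAs are short-lived. Growth factor and stress signals reach them through MAP kinases, which act on serum response factor with its ternary complex partners and on CREB or ATF proteins bound at their promoters. Proteins of the FOS, JUN and ATF families pair through leucine zippers to form AP-1, which binds short DNA elements, and other products of the class, such as DUSP1, switch the kinases off again. In mast cells, transcripts of FOS, EGR1 and the NR4A receptors are known to appear quickly after receptor triggering.

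Promoters of such genes can carry elements through which these signals are read, and 4 windows are shown because the results below turn on these genes or contrast with them. RefSeq promoters of GRCm38.p6 (mm10) were found by symbol for 8 of the 10 members, all but Egr1 and Ier2. The sequences are the 250 bases before the transcription start, 5′ to 3′ on the strand of the gene. Capitals mark letters that match the cAMP response element TGACGTCA, its TGACG part or the variant TGACATCA, on either strand. The Fos window lies at chr12:85473640-85473889 on the plus strand, the Jun window at chr4:95052223-95052472 on the minus strand, the Dusp1 window at chr17:26508473-26508722 on the minus strand, and the Nr4a1 window at chr15:101266596-101266845 on the plus strand.
Fos: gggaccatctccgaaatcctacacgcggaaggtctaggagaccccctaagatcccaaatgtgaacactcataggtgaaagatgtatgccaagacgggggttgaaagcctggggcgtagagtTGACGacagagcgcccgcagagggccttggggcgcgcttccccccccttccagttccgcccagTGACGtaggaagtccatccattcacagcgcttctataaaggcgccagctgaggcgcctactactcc
Jun: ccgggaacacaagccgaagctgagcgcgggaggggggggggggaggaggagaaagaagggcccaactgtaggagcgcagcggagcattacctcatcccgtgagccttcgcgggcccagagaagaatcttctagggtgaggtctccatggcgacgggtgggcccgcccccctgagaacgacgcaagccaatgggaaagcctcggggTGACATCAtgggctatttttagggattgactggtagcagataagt
Dusp1: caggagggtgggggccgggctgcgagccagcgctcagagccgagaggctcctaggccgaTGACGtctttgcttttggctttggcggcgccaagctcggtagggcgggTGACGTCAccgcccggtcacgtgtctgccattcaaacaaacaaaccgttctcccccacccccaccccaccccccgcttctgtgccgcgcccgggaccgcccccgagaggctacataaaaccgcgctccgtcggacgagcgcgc
Nr4a1: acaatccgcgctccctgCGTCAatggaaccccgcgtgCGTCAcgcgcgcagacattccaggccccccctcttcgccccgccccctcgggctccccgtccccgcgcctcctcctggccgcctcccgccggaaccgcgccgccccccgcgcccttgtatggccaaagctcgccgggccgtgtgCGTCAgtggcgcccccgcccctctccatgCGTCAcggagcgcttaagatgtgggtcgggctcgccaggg

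Letters of the full element TGACGTCA were present in 1 of the 8 windows, that of Dusp1, and in 1.55% of 32851 RefSeq promoters of the same length. The TGACG letters, which the full element contains, were present in 6 of 8 windows (Fos, Fosb, Junb, Atf3, Dusp1 and Nr4a1) and in 17.8% of all promoters. In Nr4a1 they occurred 4 times, first at base -233 and last at base -40 before the start. The variant TGACATCA was present in 1 of 8 windows, at base -45 of Jun, and in 2.93% of all promoters. The AP-1 letters TGAGTCA were in 0 of 8 windows against 4.46% of all promoters, and the CArG box, the serum response element core, was in 0 of 8 against 1.47%; serum response elements of this class often lie further from the start than these windows reach. A match of letters is a description of the sequence and not a measurement of binding.

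The libraries were of 2 kinds, which bears on every level below. In 10 libraries the totals were between 2211234 and 2946792 counts, while the third replicates of the P815-IFNG light and dark groups held 41473500 and 42338096. Across 18804 genes, log2 CPM (a gene's counts scaled to the total of its library) correlated at 0.911 to 0.953 among the 10, at 0.733 to 0.806 between the 10 and the deep pair, and at 0.982 within the pair. The mitochondrial gene mt-Nd6, encoded on the strand opposite to most mitochondrial genes, took 29.0% to 47.9% of the mitochondrial counts in the 10 libraries and 3.56% and 3.85% in the deep pair. Across 943 pairs of an antisense gene and a protein-coding gene on the other strand, with at least 200 shared exon bases, the antisense genes held 74.6% to 83.8% of the counts of the pairs in the 10 libraries and 16.4% and 15.9% in the deep pair. The antisense gene had more counts than its coding partner in 63.2% to 68.6% of the pairs in the 10 libraries and in 7.32% and 7.10% in the deep pair. The sources name a strand-marking kit and default counting parameters, which take reads to lie on the strand of the gene, and a kit that marks the opposite strand gives such shares under that setting. The 10 libraries may thus have been counted on the wrong strand, in which case a member's count there holds reads that map opposite to the gene, and its values, CPM per kb included, are not a measure of its mRNA; the share of such reads in each member was not measured. Every test below rests on these 10 libraries and carries that limit. The deep pair was kept out of the tests and its values are given apart, each P815-IFNG group being left with 2 mice. Of the mast cell markers, Kit, Cpa3, Gata2, Srgn and Mitf had at least 38 counts in every library, with Srgn at 138 to 595 counts in the 10 libraries and 54709 to 82415 in the deep pair. Fcer1a (0 or 1 count) and Ms4a2 (0 to 2) were at or near 0 in the 10 libraries, and Tpsab1 had 0 to 10, Tpsb2 0 to 12 and Hdc 0 to 18 counts. The tumors are bulk tissue, so fewer cells of a type and less RNA per cell cannot be told apart.

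All 10 members passed the filter on low counts, with levels that spanned more than an order of magnitude. Divided by exon length, Junb had the highest median over the 10 libraries, 27.1 CPM per kb, followed by Ier2 with 13.6, Jun with 10.3 and Dusp1 with 8.14. The middle of the order was held by Atf3 with 5.21, Ier3 with 4.31, Fos with 4.14 and Egr1 with 3.66 CPM per kb, then Nr4a1 with 2.90, and Fosb was lowest with 0.828. In the deep pair Junb was at 27.7 and 33.9 CPM per kb, Ier2 at 25.1 and 27.3 and Ier3 at 21.7 and 31.96, so the order differed there. Neighbours in the order of the 10 libraries had overlapping ranges over the 10 libraries, apart from the last pair. Junb ranged from 19.1 to 35.6 CPM per kb, so its lowest library lay within the range of Ier2, 7.27 to 19.7, whereas Fosb, at 0.152 to 1.46, lay below the range of Nr4a1, 1.65 to 4.90. At these depths a member such as Fosb rested on 2 to 23 counts per library, and a count of 3, taken as the floor, corresponded to between 0.905 and 1.54 CPM.

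In engineered tumors, light against dark left 0 of the 10 members called, where 0.00590% of all 16944 genes tested (1 gene) passed an adjusted p of 0.05 together with a log2 fold change of 1 or more in size. Egr1 was the 1 member with an unadjusted p under 0.05, a class that held 10.7% of all genes. In control tumors 0 of 10 were called against 0.927% of all genes (157 genes), and Jun and Ier2 had an unadjusted p under 0.05 against 14.0% of genes. The log2 fold change was below 0 for 7 members in P815-IFNG tumors and for 5 in P815-M tumors, against 53.1% and 49.7% of all genes. The median member differed between light and dark by -0.27 in P815-IFNG and -0.07 in P815-M tumors on the log2 scale, beside -0.04 and 0.00298 over all genes. No single member was thus called with light in either line, and the class as a whole was not tested. Changes could be missed at this depth and with this number of mice. If the 10 libraries were counted on the wrong strand, these values do not measure the members' mRNA, and its response to light was not tested. Sums of the endothelial, mast cell and skeletal muscle markers stood lower in the light P815-IFNG group. Those of the T cell, fibroblast, neutrophil and macrophage markers overlapped between the groups. Of all single genes, 22.9% separated with light lower in this comparison. The 5 endothelial markers (Pecam1, Cdh5, Kdr, Tek and Vwf) summed to 43.5 to 45.1 CPM in light and 110.5 to 142 CPM in dark, with 4 of 5 lower in light and 0 called. The mast cell markers summed to 1482 to 1562 and 1671 to 1767 CPM, with 8 of the 8 tested lower and 0 called. The 5 skeletal muscle markers (Acta1, Ckm, Ttn, Myh4 and Des) summed to 112 to 125 CPM in light and 136 to 451 CPM in dark, with 5 of 5 lower in light, and the 5 T cell markers to 1.42 to 9.89 and 7.99 to 25.05 CPM, with 5 of 5 lower and 0 called in either list. The lowest of the T cell sums stood at the floor of 3 counts. The 5 fibroblast markers (Col1a1, Col1a2, Col3a1, Dcn and Pdgfra) summed to 4403 to 5950 and 5895 to 12300 CPM, with 5 of 5 lower and 0 called. Neutrophil markers summed to 45.9 to 48.7 and 46.6 to 60.4 CPM, with S100a8 and S100a9 at 0 counts in both groups. In the deep pair the mast cell markers summed to 12330 CPM in light and 8960 in dark. The T cell markers summed to 3.40 and 1.42 CPM there, and the neutrophil markers to 233 and 216. The endothelial sums of that pair were 36.6 CPM in light and 46.3 in dark, the muscle sums 161 and 205. Its fibroblast sums were 4267 and 4980 CPM. The part of these lists in the values of the members was not tested.

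**Figure D1:**
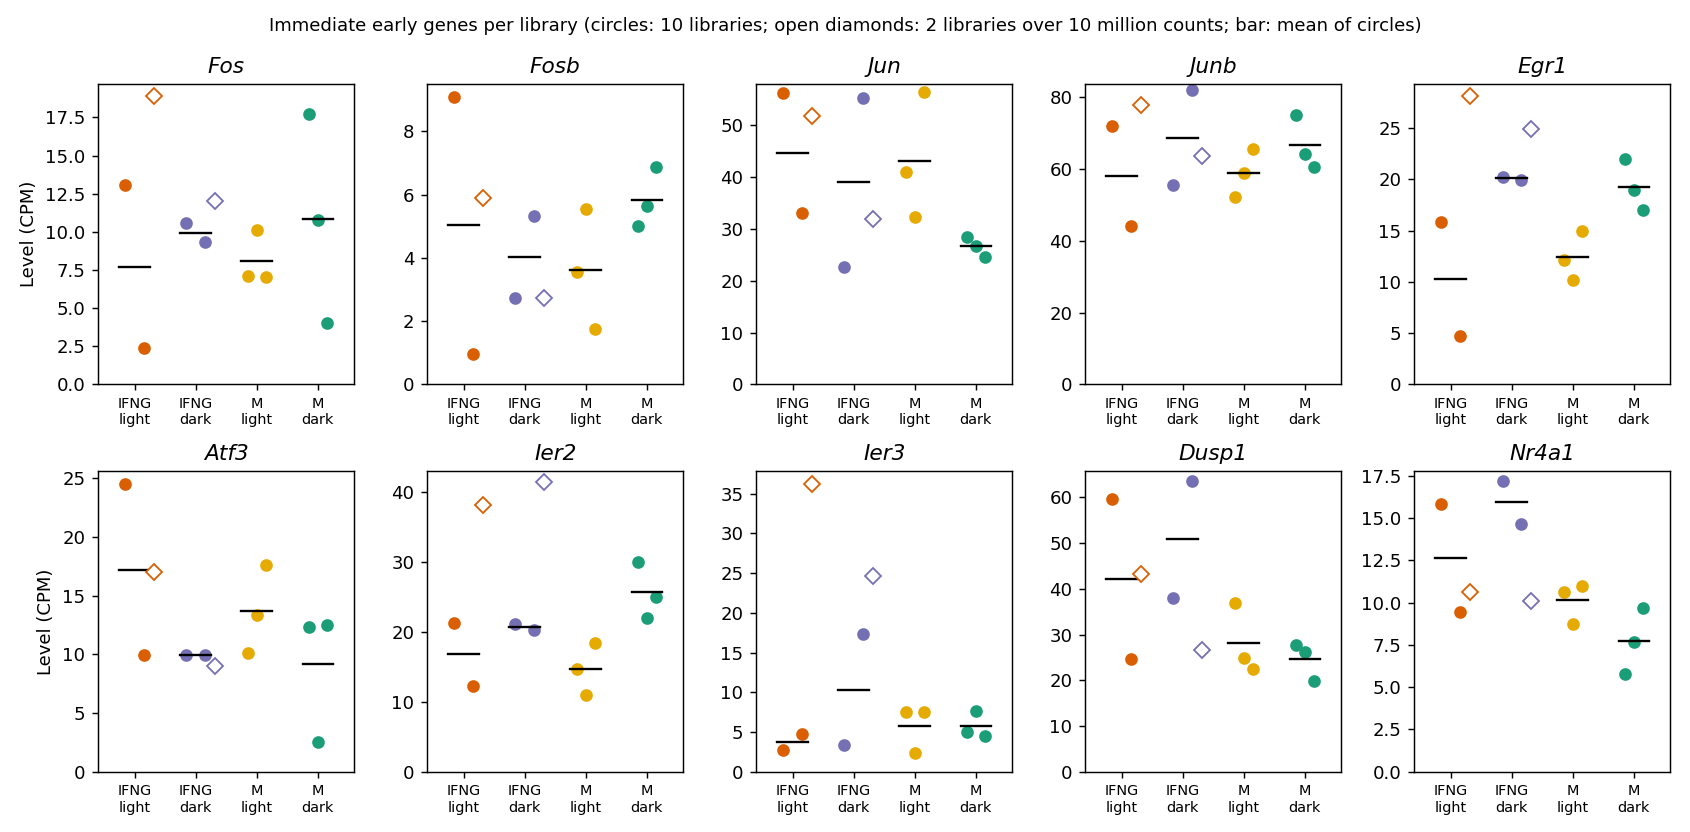
Levels of the 10 genes in CPM (y axis, linear from 0) for each library of the 4 groups (x axis). Filled circles are the 10 libraries that were tested and bars their group means; open diamonds are the 2 libraries with over 10000000 counts, scaled as a pair of their own. In P815-IFNG light tumors the circles of Fos, Fosb and Egr1 lie far apart, and the diamonds of Ier3 stand at 36.2 and 24.6 CPM.

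Egr1 encodes a zinc finger transcription factor and is a standard readout of MAP kinase signalling. In P815-IFNG tumors its level was 15.8 and 4.73 CPM in the light libraries (40 and 10 counts) and 20.2 and 19.97 CPM in the dark libraries. In P815-M tumors it was 12.1, 10.1 and 14.96 CPM in light and 21.96, 19.0 and 17.0 CPM in dark. Thus every tested light library lay below every tested dark library of the same line, in both lines. Groups that separate this way, with light lower, were found for 22.9% of all genes in P815-IFNG and 9.47% in P815-M tumors. The share of genes that did so in both lines was not counted. The difference on the log2 scale (log2 fold change) was -0.94 (standard error, SE, 0.40) in P815-IFNG tumors with an adjusted p of 0.432 by the quasi-likelihood test of edgeR with Benjamini-Hochberg correction. In P815-M tumors it was -0.63 (SE 0.33, adjusted p = 0.417 in the same edgeR test). The value in P815-IFNG tumors rested on the second light library: without it the log2 fold change was -0.34, and without the first it was -2.07. In the deep pair Egr1 was not lower in light, at 28.2 against 24.9 CPM.

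Ier2, a nuclear protein gene of the first response wave, was called in neither line and had its lower mean in light. In P815-M tumors the light libraries held 14.7, 11.1 and 18.5 CPM and the dark libraries 30.1, 22.04 and 25.1 CPM, without overlap. The log2 fold change was -0.80 (SE 0.27), with an unadjusted p of 0.00877 and an adjusted p of 0.175 by the quasi-likelihood test of edgeR with Benjamini-Hochberg correction. With each library left out in turn it stayed between -1.01 and -0.63. In P815-IFNG tumors the libraries overlapped, at 21.4 and 12.3 CPM in light and 21.1 and 20.3 CPM in dark, a log2 fold change of -0.29 (SE 0.32). The deep pair held 38.2 CPM in light and 41.6 in dark, a log2 ratio of -0.12 whose 95% counting interval ran from -0.22 to -0.02. Counting intervals cover counting error only and compare those libraries, not the conditions.

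Jun, the AP-1 subunit that can also pair with itself, was not called either and stood on the other side of 0. Its level in P815-M tumors was 41.0, 32.3 and 56.3 CPM in light against 28.5, 26.7 and 24.7 CPM in dark, again without overlap, where 10.7% of all genes separated with light higher. This gave a log2 fold change of 0.70 (SE 0.31), with an adjusted p of 0.328 by the quasi-likelihood test of edgeR with Benjamini-Hochberg correction, and 0.46 to 0.87 with 1 library left out. In P815-IFNG tumors the spread within the groups was larger than the difference, with 56.2 and 33.1 CPM in light and 22.6 and 55.3 CPM in dark. The deep light library held 51.7 CPM and the deep dark library 31.8. Jun, on chromosome 4 from 95049034 to 95052222 (minus strand, GRCm38), shares 232 exon bases with the antisense gene Junos. Junos had 238 to 473 counts in the 10 libraries and 113 to 167 in the deep pair. Jun had 52 to 166 counts in the 10 libraries and 1977 and 1302 in the deep light and dark libraries. If the 10 were counted on the wrong strand, their Jun counts hold reads opposite to the gene. The difference in P815-M tumors is then not shown for its mRNA.

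Marker sums of other cell types stood apart between light and dark in P815-M tumors as well. The 7 markers (Adgre1, Csf1r, Cd68, Mrc1, C1qa, C1qb and Lyz2) summed to 1451 to 1665 CPM in light and 681 to 952 CPM in dark, with 7 of 7 higher in light and 1 called. None of the 7 was at 0 in a group. In P815-IFNG tumors these sums were 1162 to 1743 CPM in light and 1584 to 1650 in dark. The mast cell markers summed to 1612 to 1814 CPM in light and 1897 to 2456 CPM in dark P815-M tumors, with 4 of the 8 tested lower and 0 called. Neutrophil markers summed to 37.4 to 47.5 CPM in light and 57.9 to 59.8 in dark, with 2 of the 3 tested lower and 0 called. The sums of the fibroblast, endothelial, T cell and muscle markers overlapped between these groups. The part of these lists in the values of Jun, Ier2 and Egr1 was not tested.

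Fos and Fosb, which pair with JUN proteins and cannot pair with each other, varied most within a group. In P815-IFNG light tumors Fos was at 13.1 and 2.37 CPM (33 and 5 counts) and Fosb at 9.10 and 0.946 CPM (23 and 2 counts), so the first replicate was 5.52 and 9.62 times the second. The dark libraries held 10.6 and 9.32 CPM of Fos and 2.72 and 5.33 CPM of Fosb. In P815-M tumors Fos was at 7.08, 10.1 and 7.04 CPM in light and 17.7, 10.8 and 4.04 CPM in dark, and Fosb at 3.54, 5.53 and 1.76 CPM in light and 5.01, 5.64 and 6.87 CPM in dark. The groups overlapped in each comparison of both genes. Log2 fold changes of Fos between light and dark were -0.33 (SE 0.63) in P815-IFNG and -0.42 (0.53) in P815-M tumors, and those of Fosb were 0.36 (0.75) and -0.69 (0.64). Without the first P815-IFNG light library the value in P815-IFNG tumors was -2.05 for Fos and -2.02 for Fosb, and without the second it was 0.39 and 1.18. A difference of 2-fold in either direction lies within the intervals of both genes in P815-IFNG tumors, so these data set no narrow limit.

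**Figure D2:**
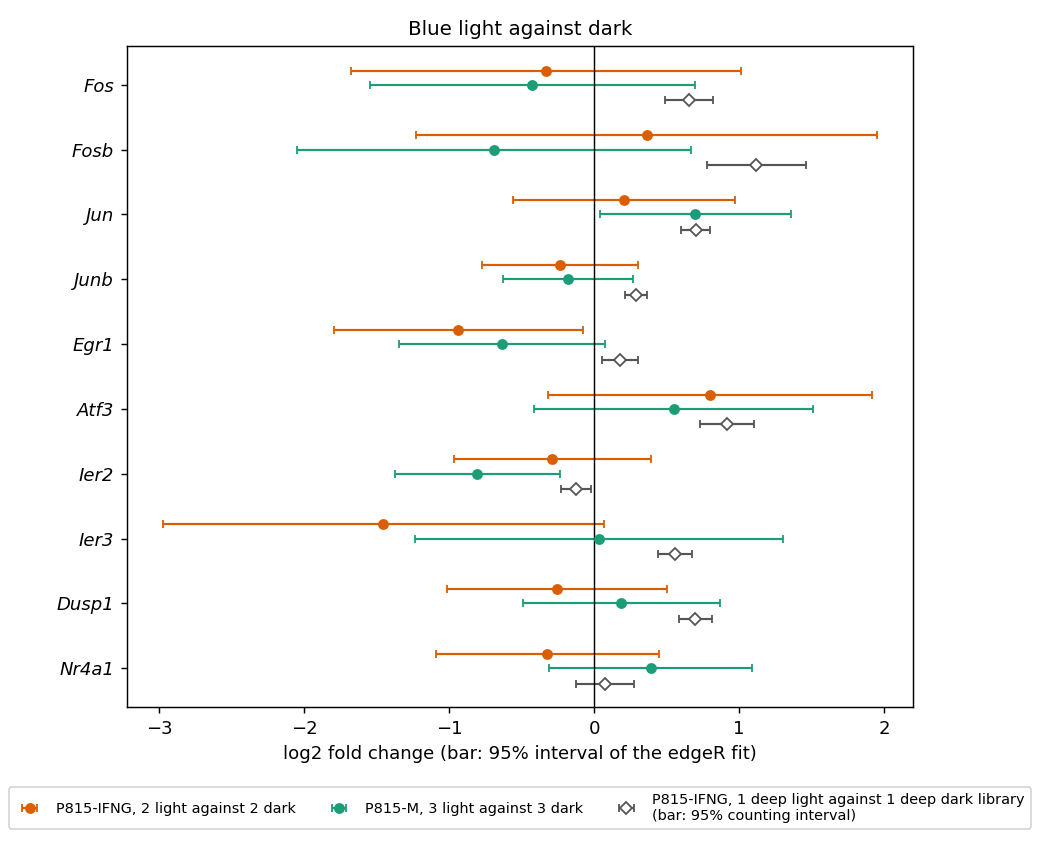
Log2 fold change of each gene between light and dark (x axis) in P815-IFNG tumors (2 against 2 libraries), P815-M tumors (3 against 3) and the pair of deep P815-IFNG libraries (1 against 1). Bars are 95% intervals of the edgeR fit for the tested groups and 95% counting intervals for the deep pair; for Fos, Jun, Junb, Egr1, Atf3 and Ier2 the points of both lines lie on the same side of 0, and the deep pair lies above 0 for all genes but Ier2.

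Junb, the JUN protein that often restrains cell growth, was the steadiest member. Its level was 72.0 and 44.0 CPM in light and 55.5 and 81.9 in dark P815-IFNG tumors, and 52.1, 59.0 and 65.6 in light and 75.1, 64.1 and 60.7 in dark P815-M tumors. The log2 fold change between light and dark was -0.24 (95% interval -0.78 to 0.30) in P815-IFNG and -0.18 (-0.62 to 0.27) in P815-M tumors. Both intervals lay within a 2-fold change, which was the case in both lines for no other member. Junb, at 84974484 to 84978718 on chromosome 8, shares 173 exon bases with Prdx2 on the other strand, which had 90 to 177 counts in the 10 libraries and 2815 to 2976 in the deep pair. If the 10 libraries were counted on the wrong strand, their Junb counts may hold reads of Prdx2, whose share was not measured.

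Atf3, a stress-induced bZIP factor, had its higher mean in light in both lines, without a call. The P815-IFNG light libraries held 24.5 and 9.94 CPM and the dark libraries 9.96 and 9.99 CPM. In P815-M tumors the values were 10.1, 13.4 and 17.6 CPM in light and 12.3, 2.56 and 12.5 CPM in dark, so 1 light library stood out in P815-IFNG and 1 dark library in P815-M tumors. The log2 fold changes were 0.80 (SE 0.53, adjusted p = 0.595) and 0.55 (0.45, adjusted p = 0.639) by the quasi-likelihood test of edgeR with Benjamini-Hochberg correction. Without the first P815-IFNG light library the value in that line was -0.00494. The deep libraries held 17.0 CPM in light and 9.001 in dark, a log2 ratio of 0.92.

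Ier3, a stress-response gene linked to cell survival, had the widest difference between the kinds of library. In the 10 libraries it held 2.77 and 4.73 CPM in light and 3.32 and 17.3 in dark P815-IFNG tumors, and 7.58, 2.30 and 7.48 in light and 5.01, 7.69 and 4.45 in dark P815-M tumors. The deep pair held 36.2 CPM in light and 24.6 in dark. Over the 4 P815-IFNG libraries in the tests Ier3 was at a log2 ratio of -2.11 to the deep pair, where the median of all genes was -0.32. The log2 fold change of light against dark in P815-IFNG tumors, -1.45 (SE 0.72, adjusted p = 0.485 by the quasi-likelihood test of edgeR with Benjamini-Hochberg correction), rested on the second dark library, which held 52 counts against 11 in the first. Without it the value was 0.17. In the deep pair the log2 ratio was 0.56.

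Dusp1 encodes a phosphatase that inactivates MAP kinases, and Nr4a1 an orphan nuclear receptor induced by receptor signalling. Between light and dark neither differed beyond the spread between libraries. Dusp1 was at 59.7 and 24.6 CPM in light and 38.0 and 63.6 CPM in dark P815-IFNG tumors, and at 36.9, 24.9 and 22.4 CPM in light and 27.7, 26.1 and 19.8 CPM in dark P815-M tumors. The log2 fold changes were -0.25 (SE 0.36) and 0.19 (0.32). Nr4a1 was at 15.8 and 9.46 CPM in light and 17.2 and 14.7 in dark P815-IFNG tumors, and at 10.6, 8.75 and 11 CPM in light and 5.78, 7.69 and 9.70 in dark P815-M tumors, with log2 fold changes of -0.32 (0.36) and 0.39 (0.33). In P815-M tumors 1 dark library of Nr4a1, at 9.70 CPM, lay within the light range.

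The tumor lines were then compared within each light condition, and in the dark these last 2 genes stood highest relative to P815-M. Of the 10 members 0 were called, where 2.19% of all genes (371 genes) were, and Dusp1 and Nr4a1 had an unadjusted p under 0.05, as did 19.5% of all genes. Dusp1 held 38.0 and 63.6 CPM in P815-IFNG against 19.8 to 27.7 CPM in P815-M tumors. Nr4a1 held 17.2 and 14.7 CPM against 5.78 to 9.70 CPM. Both lines were thus separate for both genes, a pattern with P815-IFNG higher that 19.6% of all genes showed. For Dusp1 the log2 fold change was 1.05 (SE 0.33), with an adjusted p of 0.0954 by the quasi-likelihood test of edgeR with Benjamini-Hochberg correction, and that of Nr4a1 was 1.04 (0.34, adjusted p = 0.101 in that edgeR test). With 1 library left out these ranged from 0.62 to 1.35 for Dusp1, lowest without the second P815-IFNG dark library, and from 0.86 to 1.24 for Nr4a1. The call of Dusp1 depended on the settings: without a filter on low counts its adjusted p in the edgeR test was 0.00135, past the threshold. Dusp1 also passed it without the first or the second P815-IFNG light library, at a log2 fold change of 1.045 each time. Those libraries are not in this comparison. They enter the fit only through the filter, scaling and spread that all groups share.

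The deep dark library, which has no deep P815-M partner, held 26.7 CPM of Dusp1 and 10.1 CPM of Nr4a1. These values are on a scale of their own and are not ranked against the other dark libraries. Dusp1, on chromosome 17 from 26505590 to 26562128, shares 11 exon bases with Ergic1 on the other strand, and Nr4a1, on chromosome 15 from 101254269 to 101274795, shares exon bases with no other gene of GENCODE M21. Sums of the macrophage, fibroblast and endothelial markers stood higher in the P815-IFNG dark group as well, while those of the T cell and muscle markers overlapped. Macrophage markers summed to 1584 to 1650 CPM in P815-IFNG against 681 to 952 CPM in P815-M tumors (6 of 7 higher, 2 called), the 5 fibroblast markers to 5895 to 12300 against 4638 to 5412 CPM (5 of 5 higher, 1 called), and the 5 endothelial markers to 110.5 to 142 against 21.8 to 105 CPM (5 of 5 higher, 0 called). The T cell markers summed to 7.99 to 25.05 against 3.59 to 14.6 CPM (4 of 5 higher, 0 called) and the muscle markers to 136 to 451 against 94.2 to 552 CPM (4 of 5 higher, 1 called). No marker of these 5 lists was at 0 throughout a dark group. The mast cell markers lay the other way, at 1671 to 1767 against 1897 to 2456 CPM, although 5 of the 8 tested were higher in P815-IFNG, and 0 were called. Neutrophil markers summed to 46.6 to 60.4 against 57.9 to 59.8 CPM, with 2 of the 3 tested higher and 0 called. The part of these lists in the levels of Dusp1 and Nr4a1 was not tested.

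Of the other members in the dark, Ier3 and Jun were at log2 fold changes of 0.85 (SE 0.61) and 0.54 (0.34) between the lines, each with overlapping libraries. Without the second P815-IFNG dark library, the one highest in both, these became -0.77 and -0.25. Ier2 was lower in both P815-IFNG dark libraries than in every P815-M one, at 21.1 and 20.3 against 22.04 to 30.1 CPM, with a log2 fold change of -0.32 (0.28); 16.6% of all genes separated this way. Fosb was at -0.54 (0.68), and Fos, Junb, Egr1 and Atf3 lay between -0.13 and 0.09.

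**Figure D3:**
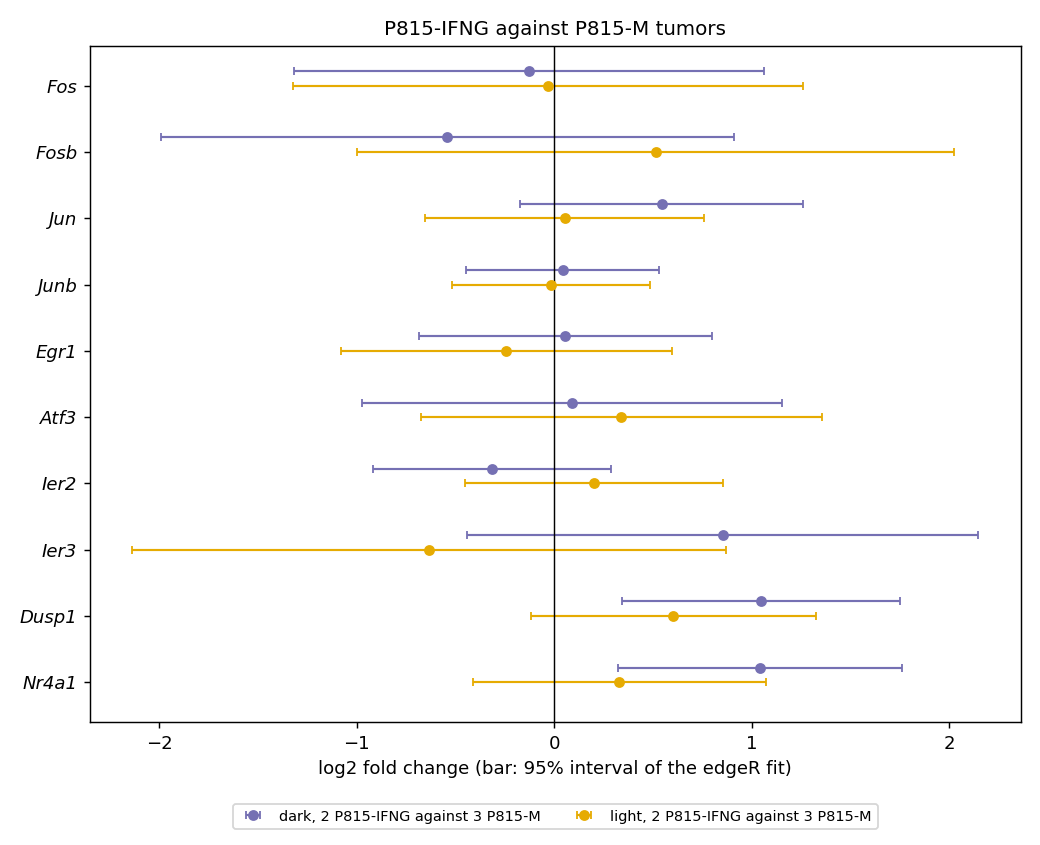
Log2 fold change of each gene between P815-IFNG and P815-M tumors (x axis) in the dark and in the light, with 2 P815-IFNG against 3 P815-M libraries in each; bars are 95% intervals of the edgeR fit. In the dark the intervals of Dusp1 (0.34 to 1.75) and Nr4a1 (0.32 to 1.76) lie above 0, and all other intervals include 0.

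Between the lines under light, 0 of the 10 members were called, against 0.230% of all genes (39 genes). An unadjusted p under 0.05 was found for 0 members, against 10.3% of genes. Dusp1 had a log2 fold change of 0.60 (95% interval -0.12 to 1.33, adjusted p = 0.576 by the quasi-likelihood test of edgeR with Benjamini-Hochberg correction), which was -0.18 without the first P815-IFNG light library, and Nr4a1 had 0.33 (-0.41 to 1.07). Ier3 was at -0.63 (SE 0.71) and Fosb at 0.52 (0.71), and the other members lay between -0.24 and 0.34.

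Whether light acted differently in the lines was tested as the difference between their light effects. Among the members 0 were called, where 0.0118% of all genes (2 genes) were, and 0 had an unadjusted p under 0.05 against 7.70% of genes. The largest values in size were -1.49 for Ier3 (SE 0.93) and 1.06 for Fosb (0.99), and the smallest adjusted p, that of Ier3, was 0.729 by the quasi-likelihood test of edgeR with Benjamini-Hochberg correction. Without the second P815-IFNG dark library the value of Ier3 was 0.14, and without the first P815-IFNG light library that of Fosb was -1.33. For Egr1 the light effects differed by -0.30 (95% interval -1.42 to 0.82), an interval that holds both 0 and a 2-fold difference.

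Several members were high or low in the same libraries. In the first P815-IFNG light library 9 of 10 members were higher than in the second, all but Ier3, whereas 50.0% of all genes were. The ratios ranged from 1.64 for Junb to 9.62 for Fosb, and were 3.34 for Egr1, 2.47 for Atf3 and 2.43 for Dusp1. The mean of the members' centred log2 levels was 0.45 in the first and -0.64 in the second of these libraries, 0.49 in the second P815-IFNG dark library, and between -0.21 and 0.15 in the other 7. The second P815-IFNG light library was the lowest of the 10 for 4 members, and the summed level of the members per library ran from 146 CPM there to 298 CPM in the second P815-IFNG dark library. The lowest and the highest sum were thus both in P815-IFNG tumors, 1 in light and 1 in dark.

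**Figure D4:**
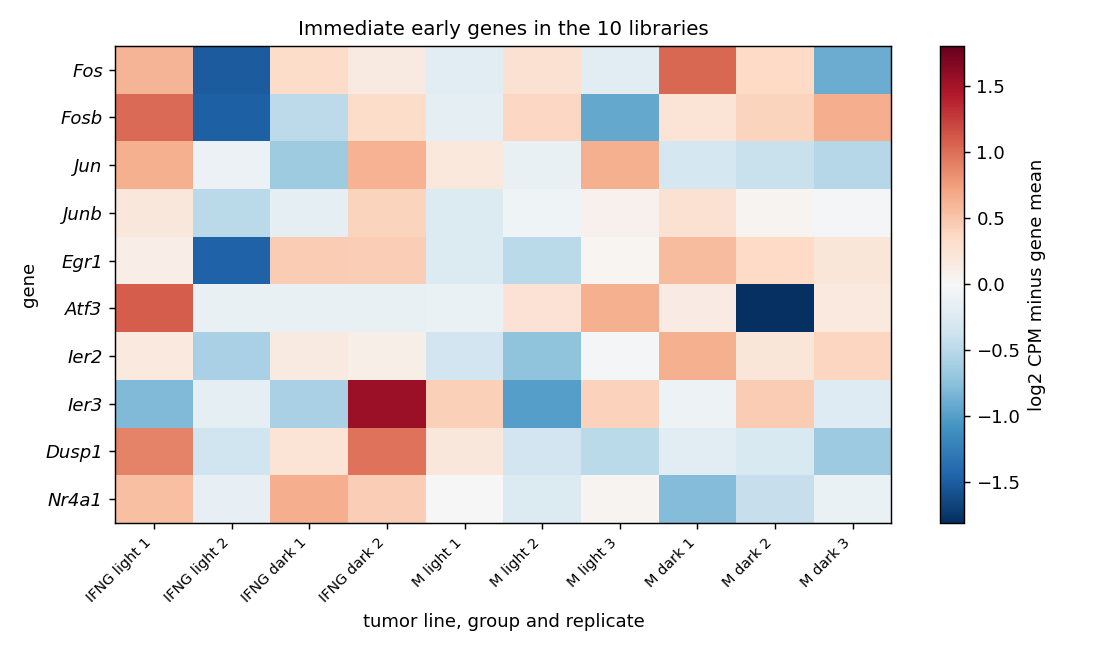
Centred log2 CPM (colour, prior count of 2) of the 10 genes (rows) in the 10 tested libraries (columns), each gene relative to its own mean. The second P815-IFNG light library is lowest for Fos (-1.50), Fosb (-1.47) and Egr1 (-1.47), the second P815-M dark library for Atf3 (-1.81), and the second P815-IFNG dark library is highest for Ier3 (1.55).

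In the deep pair, 9 of 10 members were higher in light, all but Ier2, beside a median log2 ratio of 0.00392 over 17007 genes. The ratios were 1.12 for Fosb, 0.92 for Atf3, 0.70 for Jun and Dusp1, 0.65 for Fos and 0.56 for Ier3. They were smaller for Junb (0.29), Egr1 (0.18) and Nr4a1 (0.08), and the counting interval of Nr4a1, -0.13 to 0.28, included 0. With 1 library per condition there was no replicate check, and for each member the ratio between the 2 light libraries of the same line in the tests was further from 1 than the ratio within the deep pair. Summed over the members, the deep libraries held 328 CPM in light and 247 CPM in dark.

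Genes around the members in the same pathway were given by lists. Of 20 upstream kinases and factors, which include the RAF, MEK, ERK, JNK and p38 kinases, SRF with its partners and Creb1, 0 were called in any of the 5 comparisons. Of 13 further AP-1 and related bZIP genes 0 were called in any comparison, and each list held 0 to 3 genes with an unadjusted p under 0.05 in a comparison. DESeq2 called 0 genes of both lists as well. For light against dark in P815-IFNG tumors it gave no adjusted p for Jdp2, Fosl2, Maff, Mrtfa and Creb1. Those genes could not be called there. Jdp2, which represses AP-1, came nearest, with 17.2 and 25.6 CPM in dark P815-IFNG against 6.15 to 12.7 CPM in dark P815-M tumors, for a log2 fold change of 1.29 (SE 0.35, adjusted p = 0.0593 by the quasi-likelihood test of edgeR with Benjamini-Hochberg correction). It passed the threshold without a filter on low counts (adjusted p = 0.0080 in the edgeR test) and without the first P815-M dark library (1.70, adjusted p = 0.0289 in that edgeR test). Fosl2, a FOS relative, was at 35.0 to 60.9 CPM in light and 48.0 to 112 CPM in dark P815-IFNG tumors, with a log2 fold change of -0.73 (0.40). The ternary complex factor Elk4 was at 27.9 to 38.4 CPM in P815-IFNG and 14.7 to 19.4 CPM in P815-M light tumors, for a log2 fold change of 0.99 (0.24, adjusted p = 0.115 in that edgeR test), and at 0.71 (0.24, adjusted p = 0.113 in that edgeR test) in the dark; the comparisons in light and dark use different mice.

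Of 37 other immediate early genes 35 were tested, and 3 (Sgk1, Klf4 and Nfkbia) were called, all higher in P815-IFNG than in P815-M tumors in the dark, where 2.19% of all genes were called. The list had 28 of 35 genes above 0 in that comparison with a median log2 fold change of 0.50, beside 54.0% and 0.05 over all genes, and the 10 members had 7 above 0 with a median of 0.07. Sgk1, a serum- and glucocorticoid-induced kinase, held 11.2 and 12.7 CPM in P815-IFNG against 1.21 to 4.10 CPM in P815-M tumors, and was higher by 2.17 on the log2 scale (SE 0.52, adjusted p = 0.0352 by the quasi-likelihood test of edgeR with Benjamini-Hochberg correction). Klf4, a zinc finger factor, held 31.1 and 83.2 CPM against 18.5 to 21.8 CPM, and was higher by 1.48 (0.32, adjusted p = 0.0254 in the same edgeR test). Nfkbia, the inhibitor of NF-κB, held 25.7 and 24.97 CPM against 9.74 to 14.2 CPM, and was higher by 1.14 (0.29, adjusted p = 0.0437 in the same edgeR test).

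With 1 library left out, the log2 fold change stayed between 1.80 and 2.57 for Sgk1 and between 1.05 and 1.31 for Nfkbia. The calls were less stable than these values. That of Sgk1 was lost in 6 of 10 fits with 1 library left out, that of Nfkbia in 7 and that of Klf4 in 4, and without the second P815-IFNG dark library the log2 fold change of Klf4 was 0.59. Over all 12 libraries each of them missed the threshold. The deep dark library held 3.38 CPM of Sgk1 and 16.9 CPM of Klf4 and 54.9 CPM of Nfkbia, on its own scale. The macrophage, fibroblast and endothelial marker sums given above differ between the same groups, and their part in these genes was not tested. In light against dark, 0 genes of the list were called in either line; Klf4 was nearest in P815-M tumors, at 34.3 to 50.6 CPM in light and 18.5 to 21.8 CPM in dark (log2 fold change 1.07, SE 0.30, adjusted p = 0.112 in that edgeR test). Klf4 passed the threshold there without the first or the second P815-IFNG dark library, at log2 fold changes of 1.069 and 1.072. Those libraries are not in that comparison and enter the fit only through the filter, scaling and spread that all groups share. Without a filter on low counts, Klf4 (adjusted p = 0.000325) and Plk2 (0.00869) were called in P815-M and Btg2 (0.0199) and Ptgs2 (0.0198) in P815-IFNG tumors by the edgeR test.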

How the data were processed

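RNA-seq of 12 single-tumor samples was used. The members and the gene lists were chosen with earlier results of these data known. Per the labels and methods, the authors made libraries with a strand-marking mRNA kit, trimmed reads with fastp, aligned them with STAR 2.7.9a to mm10 with the knock-in sequences added, and counted them with HTSeq 0.13.5 at default parameters. The 10 smaller libraries may have been counted on the wrong strand. The deposited values are raw counts per gene; the removal of mitochondrial genes, ComBat-seq and DESeq2 1.32.0 of the methods came later and are not in them.

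Here the 13 mitochondrial rows and genes with fewer than 10 counts over the 10 libraries of at most 10000000 counts were removed. These libraries were fitted in R 4.3.3 with edgeR 4.0.16 (TMM, 1 mean per group, quasi-likelihood test, Benjamini-Hochberg adjustment over all genes tested), and a gene was called when its adjusted p was 0.05 or less and its log2 fold change 1 or more in size. CPM are scaled by TMM, separately for the 10 libraries and for the 2 deep ones, so levels across these kinds are not on a shared scale. The 2 deep libraries stood apart in earlier results and are given as values. The methods name no batch, so the deep pair was taken as one in the alternatives. The labels and results give 6 days of light.

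Named were all members, and per list and comparison the called genes, otherwise the 3 largest log2 fold changes among genes of at least 5 mean CPM, of which the text gives those nearest the threshold; mt-Nd6 was chosen after its values were seen. Further lists were the 10 mast cell, 7 macrophage, 5 neutrophil, 5 T cell, 5 fibroblast, 5 endothelial and 5 skeletal muscle markers. Same-numbered libraries of different groups did not deviate together, so the numbers were not taken as pairs. Intervals of single libraries are 95% counting intervals. Positions and exon overlaps came from GENCODE M21 (GRCm38) and promoters from RefSeq. Alternatives were DESeq2 1.42.0, its size factors, no filter, a replicate block, all 12 libraries as such, with a batch term or after ComBat-seq (sva 3.50.0), calls without a minimum fold change, and leaving out each library; the light effect averaged over both lines was added after seeing the data. Figures were drawn in Python 3.11.15 with matplotlib 3.10.9. The edgeR fit was also run on simulated counts with the same spread for all genes. Changes were placed only in genes with higher mean counts than Fosb, Fos and Ier3 had. It is thus no check on those members.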

Additional observations from a re-analysis of the deposited data

How the results depend on the processing

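The count of members called was 0 in each comparison under each alternative, with 1 exception. Between the lines in the dark, 1 member (Dusp1) was called without a filter on low counts, and 0 to 1 when each library was left out. With DESeq2 no member had an adjusted p for light against dark in P815-IFNG tumors. Its count of 0 there was thus fixed in advance and is no check. Over all genes, the counts for the light effect in P815-IFNG, that in P815-M, the lines in light, the lines in dark and the difference between light effects were 1, 157, 39, 371 and 2 in the reported fit. They were 8, 230, 76, 434 and 21 with DESeq2, 341, 476, 257, 867 and 297 without a filter, 0, 0, 3, 2 and 0 over all 12 libraries, 2, 194, 82, 290 and 3 with batch as a term, 150, 247, 252, 544 and 40 after ComBat-seq and 1, 202, 41, 541 and 2 without a minimum fold change; the cause was not tested. Nfkbia was not called in the dark with DESeq2 (adjusted p = 0.0533), and Sgk1 was not with batch as a term (adjusted p = 0.0824 in the edgeR test). Calls gained without a filter were Btg2 and Ptgs2 for light in P815-IFNG, Plk2 and Klf4 for light in P815-M, Ccn1, Ccn2 and Nfkbia for the lines in light, and Dusp1 and Jdp2 for the lines in dark. Ccn1, Ccn2 and Nfkbia were also called in light after ComBat-seq, and Nfkbia with batch as a term (adjusted p = 0.0394 in the edgeR test).

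Of 685 values of named genes under the alternatives that leave no library out, 633 kept their direction and side of the threshold and 34 changed sign, none of them a called value. A missing adjusted p of DESeq2 was counted as not called. Over all 12 libraries, the reversed log2 fold changes were Fos 0.085 for light against dark in P815-IFNG, Fos 0.41, Junb 0.049, Egr1 0.29 and Ier3 1.21 for the lines in light, Junb -0.039 and Ier2 0.039 for the lines in dark, Junb 0.089 and Egr1 0.18 for the difference between light effects. With batch as a term, the reversed log2 fold changes were Fos 0.069 and Dusp1 0.088 for light against dark in P815-IFNG, Fos 0.18, Junb 0.068 and Egr1 0.013 for the lines in light, Junb -0.041 and Egr1 -0.13 for the lines in dark, Junb 0.11 and Egr1 0.14 for the difference between light effects. After ComBat-seq, the reversed log2 fold changes were Fos 0.22 and Dusp1 0.13 for light against dark in P815-IFNG, Ier3 -0.0014 for light against dark in P815-M, Fos 0.26, Junb 0.084, Egr1 0.028 and Ier3 0.13 for the lines in light, Junb -0.034 and Egr1 -0.16 for the lines in dark, Junb 0.12 and Egr1 0.19 for the difference between light effects. The light effect averaged over both lines is an estimate of neither line alone. For Fosb (-0.16) and Nr4a1 (0.034) this average had the opposite sign to the light effect in P815-IFNG. For Ier3 (-0.71) and Dusp1 (-0.033) it had the opposite sign to the light effect in P815-M. The cause was not tested.

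With each library left out in turn, 869 of 950 values kept direction and call and 59 changed sign. Where this leaves 1 library in a group, it is assumed to vary like the other groups. For light against dark in P815-IFNG, the ranges were Fos -2.05 to 0.39, Fosb -2.02 to 1.18, Jun -0.28 to 0.99, Junb -0.64 to 0.078, Atf3 -0.0049 to 1.29, Ier2 -0.75 to 0.044, Ier3 -2.19 to 0.17, Dusp1 -1.04 to 0.24, Fosl2 -1.20 to 0.016 and Maff -0.066 to 0.90. For light against dark in P815-M, the ranges were Fos -0.83 to 0.16, Ier3 -0.21 to 0.41 and Dusp1 -0.063 to 0.33. For the lines in light, the ranges were Fos -1.75 to 0.69, Fosb -1.87 to 1.33, Jun -0.38 to 0.38, Junb -0.42 to 0.29, Egr1 -1.38 to 0.35, Atf3 -0.47 to 0.83, Ier2 -0.26 to 0.53, Dusp1 -0.18 to 1.09, Nr4a1 -0.097 to 0.64, Maff -0.15 to 0.82, Ccn2 -0.49 to 3.06, Ccn1 -0.28 to 2.34 and Mapk8 -0.14 to 1.12. For the lines in dark, the ranges were Fos -0.55 to 0.46, Jun -0.25 to 1.03, Junb -0.28 to 0.27, Egr1 -0.046 to 0.16, Atf3 -0.31 to 0.35 and Ier3 -0.77 to 1.58. For the difference between light effects, the ranges were Fos -1.62 to 0.82, Fosb -1.33 to 1.87, Jun -0.98 to 0.30, Junb -0.46 to 0.26, Egr1 -1.44 to 0.29, Atf3 -0.56 to 0.74, Ier3 -2.22 to 0.14, Dusp1 -1.23 to 0.048 and Mapk8 -0.085 to 1.17.

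With the replicate number as a block no member was called, Dusp1 was at 0.95 (adjusted p = 0.128 in the edgeR test) and Nr4a1 at 1.17 (adjusted p = 0.0924) between the lines in the dark, and the difference between light effects of Fos changed sign to -0.24. The block gave 5, 252, 41, 445 and 14 calls over all genes. Correlations of deviations from the group means lay between -0.342 and 0.276 for the 13 same-numbered pairs and between -0.276 and 0.229 for the 24 others. The depth of the 10 libraries limits the members with few counts (Fosb, Ier3 and Fos), and each P815-IFNG group held 2 of them.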

Other observations

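Averaged over both tumor lines (5 light against 5 dark libraries, a fit chosen after seeing the data), Egr1 had a log2 fold change of -0.78 (SE 0.26, adjusted p = 0.153 by the quasi-likelihood test of edgeR with Benjamini-Hochberg correction) and Ier2 one of -0.55 (0.21, adjusted p = 0.1998). In this fit 150 genes, 0.885% of 16944, had an adjusted p of at most 0.05, and 0 of the 10 members did. Atf3 was at 0.68 (0.35) and Jun at 0.45 (0.24), on the other side of 0. Dusp1 and Nr4a1 lay at -0.03 and 0.03.

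Among 10626 genes with a mean of at least 20 counts, the 5 whose centred log2 levels over the 10 libraries lay closest to the mean profile of the members were Picalm, Syap1, Ap1b1, Ormdl3 and Golt1b. The root mean square difference was 0.119 for Picalm, a clathrin adaptor gene, and 0.149 to 0.164 for the others. The points share library depth and scaling, and the likeness is given as a description.

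Among the other immediate early genes, the growth-restraining gene Btg2 was at 0.473 and 7.12 CPM in light and at 14.7 to 16.3 CPM in dark P815-IFNG tumors, for a log2 fold change of -1.96 (SE 0.85, adjusted p = 0.432 by the quasi-likelihood test of edgeR with Benjamini-Hochberg correction), and Ptgs2, the inducible cyclooxygenase gene, was at 3.96 to 8.52 CPM in light and 6.34 to 32.6 CPM in dark (-1.65, 0.74, adjusted p = 0.441). The matricellular genes Ccn1 and Ccn2 were at 3.31 to 20.6 and 3.79 to 28.5 CPM in light P815-IFNG tumors against 0.461 to 7.04 and 1.52 to 11.9 CPM in light P815-M tumors, with log2 fold changes of 1.58 (0.86) and 1.61 (0.78), neither of them called. Both were called after ComBat-seq (adjusted p = 0.00506 and 0.00357 in the edgeR test) and without a filter on low counts (0.0441 and 0.0201). For Gadd45b the light effects of the lines differed by 1.39 (0.57, adjusted p = 0.624 in that edgeR test), the libraries being at 7.12 to 8.99 CPM in light and 4.99 to 5.43 in dark P815-IFNG tumors and at 4.55 to 8.80 and 8.71 to 11.9 CPM in P815-M tumors.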
